A study of Homo sapiens with 6 samples.

Results

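The miR-181 family comprises closely related microRNAs (miRNAs, short RNAs that guide silencing of messenger RNAs) made from hairpins at 3 genomic loci. The 7 mature strands described here, miR-181a-5p, miR-181b-5p, miR-181c-5p, miR-181d-5p, miR-181a-3p, miR-181a-2-3p and miR-181c-3p, were chosen by name from 2656 mature miRNAs in the deposited count table. All 7 were abundant enough to test, among 783 tested miRNAs. Small RNA had been sequenced from KPL4, an established human breast adenocarcinoma line, to compare cells with and without estrogen receptor β (ERβ). One group was 3 libraries of ERβ knockout cells, called knockout libraries S1, S2 and 3. The other was 3 libraries of ERβ knockout cells with exogenous ERβ, called ERβ libraries 1, 2 and 3, so the knockout is common to both groups. The labels name no treatment, and both groups were grown with serum, insulin and hydrocortisone. Neither the number of clones behind each group nor the promoter of the introduced receptor is stated in the sources used, and the samples include no empty-vector group. The receptor and other differences between these cells cannot be told apart. The labels do not say whether replicates were grown separately, and the p-values cover only the spread among these libraries, which may be technical.

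A hairpin yields a 5p and a 3p strand, and the strand that is usually retained in the silencing complex is called the guide. In this family the guides are the 5p strands, which share a seed, the short stretch near the 5′ end that pairs with target messenger RNAs. The family is known for setting T-cell receptor sensitivity and early blood cell differentiation, and for repressing the pro-apoptotic factor BIM. In breast cancer cells, miR-181a is known as a miRNA induced by TGF-β, a cytokine that can loosen epithelial contacts, and as a repressor of the DNA damage kinase ATM. No target messenger RNA is measured by these libraries.

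The 5p strands are shown because they differ only outside the seed, so that reads of one can resemble another. Sequences are from RefSeq on GRCh38.p14, which held all 7 members, with the seed (bases 2 to 8) in capitals.
miR-181a-5p: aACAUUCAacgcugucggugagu
miR-181b-5p: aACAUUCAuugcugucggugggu
miR-181c-5p: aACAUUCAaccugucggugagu
miR-181d-5p: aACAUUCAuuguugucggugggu
Counted from the 5′ end, miR-181b-5p differs from miR-181a-5p by A9U, C10U and A21G. A single change, C12U, separates miR-181d-5p from miR-181b-5p. miR-181c-5p lacks the base at position 11 of miR-181a-5p and is otherwise identical to it. The only other human mature miRNA in the RefSeq table with this seed was miR-4262, listed at 0 in all 6 libraries.

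The 3p strands are shown because they tell the loci apart, and each had a seed found in no other human mature miRNA of the same table.
miR-181a-3p: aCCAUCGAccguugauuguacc
miR-181a-2-3p: aCCACUGAccguugacuguacc
miR-181c-3p: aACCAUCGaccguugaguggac
miR-181a-2-3p differs from miR-181a-3p by U5C and C6U inside the seed and U16C outside it. miR-181c-3p starts 1 base earlier than miR-181a-3p and, once shifted, differs by U16G and U19G.

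The first hairpin pair, MIR181A1 (chr1:198859044-198859153, GRCh38, minus strand) and MIR181B1 (chr1:198858873-198858982), lies 61 bases apart in an intron of the long non-coding RNA gene MIR181A1HG. The second, MIR181A2 (chr9:124692442-124692551, plus strand) and MIR181B2 (chr9:124693710-124693798), lies 1158 bases apart in an intron of MIR181A2HG, which runs opposite to an intron of NR6A1. MIR181C (chr19:13874699-13874808, plus strand) and MIR181D (chr19:13874875-13875011) lie 66 bases apart in an intron of NANOS3. miR-181a-5p and miR-181b-5p are each made at both the chromosome 1 and the chromosome 9 locus, and their reads cannot be assigned to either. The 2 hairpins of miR-181a-5p, with both mature strands in capitals, show the same 5p strand beside different 3p strands.
MIR181A1: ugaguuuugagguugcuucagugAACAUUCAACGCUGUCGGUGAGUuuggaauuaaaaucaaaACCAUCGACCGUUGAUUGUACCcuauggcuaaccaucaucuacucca
MIR181A2: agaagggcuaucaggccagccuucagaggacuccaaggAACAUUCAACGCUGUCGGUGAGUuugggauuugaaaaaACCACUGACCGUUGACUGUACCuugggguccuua

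Library totals ran from 10288415 to 14296902 counts. Knockout library S2 stood apart: over tested miRNAs the chi-square per degree of freedom was 307 and 331 against the other knockout libraries, and 12.2 to 21.2 for every other pair within a group. Among the 7 members S2 was the lowest knockout library for 6 and the highest for miR-181a-5p, so the members' fold changes and ratios, and the counts of calls, are given with and without it. Levels below are in CPM, counts divided by library totals that had been scaled with edgeR's TMM factors. On a log2 CPM scale the gap of S2 was smaller. There the SD of differences between 2 libraries was 0.52 and 0.53 for S2 against the other knockout libraries. It was 0.35 for S1 against knockout library 3 and 0.30 to 0.31 among ERβ libraries. A log2 fold change is that of ERβ libraries over knockout libraries, ± the standard error of the edgeR fit (n = 3 per group). A miRNA counts as called when its p-value, adjusted by Benjamini-Hochberg, is under 0.05. Over all tested miRNAs edgeR called 9.83% higher and 13.3% lower, and without S2 15.2% higher and 19.6% lower. Of 8 epithelial miRNAs (the miR-200 family, miR-203a-3p, miR-205-5p and miR-375-3p), 1 was higher and 4 lower, led by miR-205-5p (log2 fold change 0.52 ± 0.08), miR-375-3p (-0.57 ± 0.10) and miR-200c-3p (-0.31 ± 0.07). Without S2, 1 was higher and 6 lower, and without any one of the other 5 libraries or with upper-quartile factors or totals at most 2 were lower. Their summed level was 94615 to 110661 CPM in knockout and 93312 to 98066 CPM in ERβ libraries. Blood cell markers, relevant because lymphoid cells are rich in miR-181, summed to 19.8 to 24.5 and 20.5 to 23.4 CPM. Of 8 such markers 4 were tested and 0 called by edgeR, with 1 at an unadjusted p under 0.05 (miR-451a) and 0 called by DESeq2, limma-voom or without S2, and miR-150-5p was at most 0.909 CPM. Neural markers had 0 of 6 higher and 2 lower, miR-129-5p (-0.45 ± 0.13) and miR-9-3p (-0.28 ± 0.08), but 4 lower without S2 and 0 without S1 or any one ERβ library, with miR-124-3p at most 0.0826 CPM. Their sum, carried by miR-9, was 52693 to 60742 and 49555 to 51108 CPM. Stromal, endothelial, muscle and liver markers had 0 of 6 higher and 3 lower, miR-1-3p (-2.67 ± 0.33), miR-143-3p (-1.15 ± 0.15) and miR-126-3p (-0.30 ± 0.06), and 4 lower without S2. These summed to 21654 to 23215 and 18160 to 20058 CPM, nearly all of it miR-126, and no marker of any list was at 0 in all libraries. The part of these markers in the results below was not tested.

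With exogenous ERβ, miR-181a-5p was the only one of the 7 members called lower, and none was called higher. Called or not, 5 members had a negative log2 fold change and 2 a positive one. Over all tested miRNAs 402 were negative and 381 positive. Across all tested miRNAs 23.1% were called, 9.83% higher and 13.3% lower, at an adjusted p under 0.05 (Benjamini-Hochberg, edgeR quasi-likelihood), and 1 of 7 is not above that background. The calls over all miRNAs were 77 higher and 104 lower, against 123 and 70 with upper-quartile scaling and 146 and 61 with library totals. At an unadjusted p under 0.05 there were 2 members, miR-181a-5p and miR-181c-5p, both lower, and DESeq2 and limma-voom each called 0 higher and 1 lower. The members' median log2 fold change was -0.16, and that of all tested miRNAs -0.01. With library totals these medians were -0.00491 and 0.14, and without S2 they were -0.29 and 0.00340. Without S2, 4 of 7 members were lower and none higher, where 34.9% of all tested miRNAs were called, 15.2% higher and 19.6% lower. Beside miR-181a-5p these were miR-181c-5p, miR-181a-2-3p and miR-181c-3p.

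**Figure D1:**
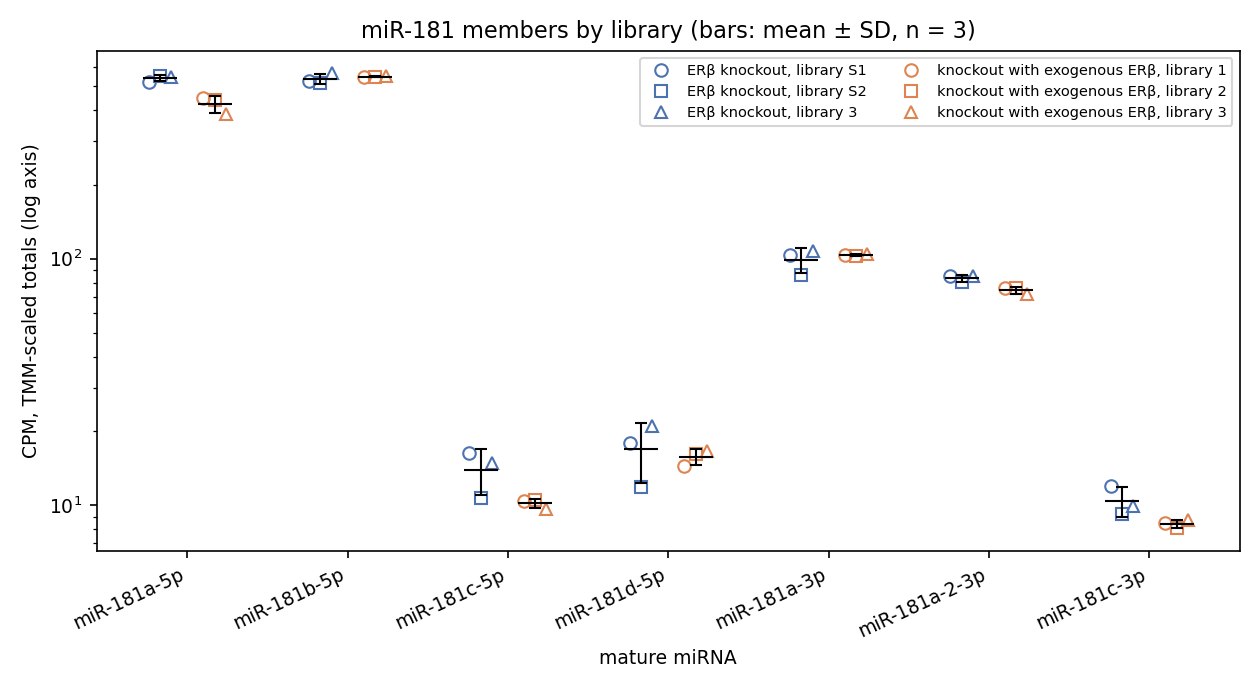
Level of each miR-181 member in each library, in CPM (TMM-scaled, log axis), with the group mean and SD (n = 3). miR-181a-5p lies lower in all 3 ERβ libraries (386 to 447 CPM) than in the knockout libraries (522 to 554 CPM), while miR-181b-5p overlaps between groups.

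A read spans a whole mature miRNA of 22 or 23 bases, so CPM were not divided by length, and differences in ligation between sequences were not tested. In CPM miR-181b-5p and miR-181a-5p were the most abundant members, ranking at 107 and 112 of all miRNAs by mean CPM. miR-181a-3p (mean 101 CPM) and miR-181a-2-3p (78.9 CPM) followed, and miR-181d-5p, miR-181c-5p and miR-181c-3p were the scarcest at 16.3, 12.1 and 9.42 CPM. The summed members took 0.123 ± 0.00349% of all counts in knockout and 0.125 ± 0.00525% in ERβ libraries (SD, n = 3), a difference within the spread. In TMM-scaled CPM the same sum was 1299 ± 42.8 and 1183 ± 32.1. Knockout libraries ran from 1266 to 1347 CPM and ERβ libraries from 1146 to 1205 CPM, so the scaling decides whether the family total separates the groups.

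miR-181a-5p, the founding guide of the family, was at 522, 554 and 545 CPM in knockout libraries S1, S2 and 3 and at 447, 439 and 386 CPM in ERβ libraries 1, 2 and 3. Every ERβ library lay below every knockout library, as 20.9% of all tested miRNAs did. The means were 540.1 ± 16.6 and 424 ± 32.9 CPM (SD, n = 3), a log2 fold change of -0.35 ± 0.08 or 0.785-fold (edgeR quasi-likelihood, adjusted p = 0.0145). Without S2 it was -0.33 ± 0.06 (edgeR adjusted p = 7.64e-05). The call was lost without ERβ library 1 (edgeR adjusted p = 0.0574), ERβ library 2 (0.0791) or ERβ library 3 (0.0829), each with a negative log2 fold change of -0.36, -0.34 and -0.29. It was also lost with upper-quartile factors (-0.24, adjusted p = 0.0780) and library totals (-0.19, adjusted p = 0.154). Those scalings moved the median of all tested miRNAs from -0.01 to 0.10 and 0.14. Relative to that median miR-181a-5p was at -0.34, -0.34 and -0.33 under TMM, upper-quartile factors and totals.

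miR-181b-5p, made beside miR-181a-5p at both loci, did not share that difference. It was at 527, 515 and 564 CPM in knockout and 545, 546 and 549 CPM in ERβ libraries. The ERβ values sit inside the knockout range. Means were 535 ± 25.7 and 547 ± 1.95 CPM, and the log2 fold change was 0.03 ± 0.07 (edgeR adjusted p = 0.807), or 0.00 ± 0.05 without S2. Relative to the median of all tested miRNAs it was at 0.04, 0.04 and 0.05 under the 3 scalings.

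miR-181c-5p and miR-181d-5p, the guides of the chromosome 19 hairpins, were measured on far fewer reads, 115 to 180 and 145 to 246 counts per library. miR-181c-5p was at 16.4, 10.7 and 14.9 CPM in knockout and 10.4, 10.5 and 9.67 CPM in ERβ libraries. The groups do not overlap, but S2 lies just above the ERβ libraries and away from the other knockout libraries. Its log2 fold change was -0.45 ± 0.17 and did not pass (edgeR adjusted p = 0.0904). Without S2 it was -0.62 ± 0.12 and passed (edgeR adjusted p = 3.34e-04), the most negative value of the 7.

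miR-181d-5p was at 17.8, 11.9 and 21.0 CPM in knockout and 14.4, 16.2 and 16.6 CPM in ERβ libraries. S2 is the lowest of all 6 libraries and knockout library 3 the highest, so the groups overlap. The log2 fold change was -0.09 ± 0.19 (edgeR adjusted p = 0.784) and -0.29 ± 0.12 without S2 (edgeR adjusted p = 0.0581). Its sign turned with upper-quartile factors (0.0211), library totals (0.0689) and without knockout library 3 (0.0909), so no direction can be given for it.

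**Figure D2:**
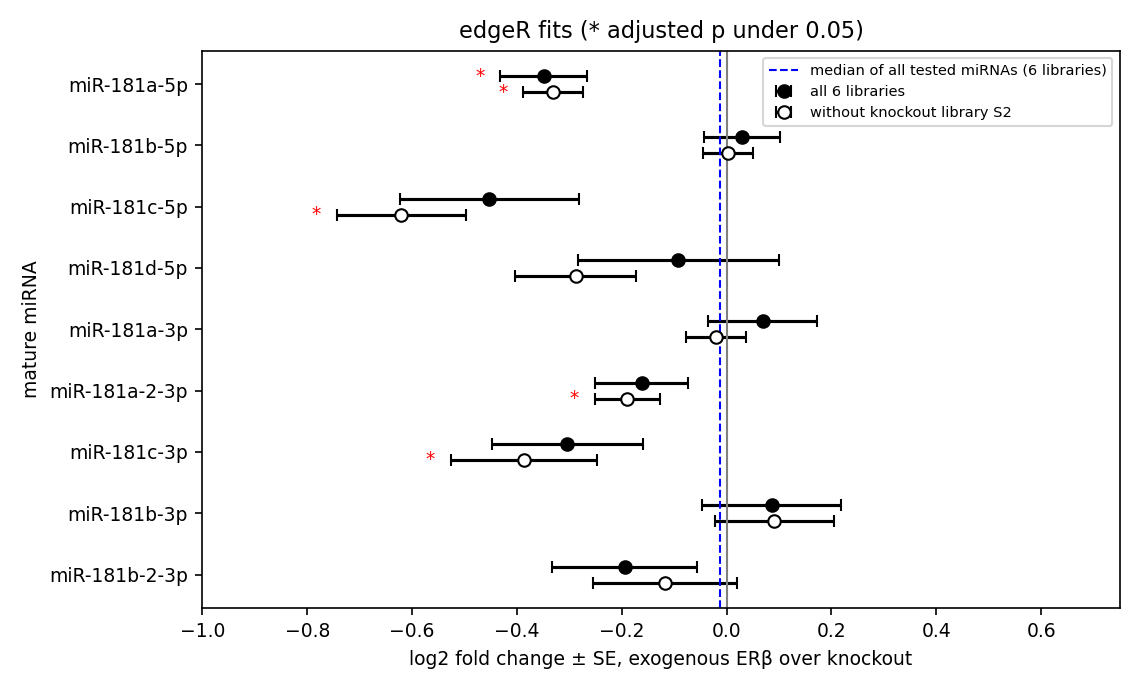
Log2 fold change with its standard error (horizontal axis, exogenous ERβ over knockout) for the 7 members and 2 further 3p strands, from all 6 libraries (filled) and without knockout library S2 (open). Red asterisks mark adjusted p under 0.05: 1 member with all libraries, miR-181a-5p at -0.35, and 4 without S2.

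The 3p strands separate the loci that the shared guides do not. miR-181a-3p, from chromosome 1, was at 103, 86.1 and 107 CPM in knockout and 104, 103 and 104 CPM in ERβ libraries. Only S2 departs from the other 5 libraries, and the log2 fold change was 0.07 ± 0.10 (edgeR adjusted p = 0.690), or -0.0204 ± 0.0576 without S2. miR-181a-2-3p, from chromosome 9, was at 84.9, 80.2 and 84.8 CPM in knockout and 75.9, 75.8 and 71.7 CPM in ERβ libraries. These groups do not overlap, yet the log2 fold change of -0.16 ± 0.09 did not pass (edgeR adjusted p = 0.235). It passed without S2 at -0.19 ± 0.06 (edgeR adjusted p = 0.0213). With upper-quartile factors the log2 fold change was -0.05 (edgeR adjusted p = 0.722), and with library totals it was -0.00491 (edgeR adjusted p = 0.970). Relative to the median of all miRNAs, which those scalings moved too, miR-181a-2-3p was at -0.15 under TMM, upper-quartile factors and totals.

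miR-181c-3p, the partner strand of miR-181c-5p, was at 12, 9.26 and 9.97 CPM in knockout and 8.47, 8.09 and 8.72 CPM in ERβ libraries. All ERβ values lie below all knockout values, with a log2 fold change of -0.30 ± 0.14 that did not pass (edgeR adjusted p = 0.172). Without S2 it was -0.39 ± 0.14 (edgeR adjusted p = 0.0355). In all, 4 of 7 members had TMM-scaled CPM groups that do not overlap: miR-181a-5p, miR-181a-2-3p, miR-181c-5p and miR-181c-3p. All of these were lower. Of all tested miRNAs 39.8% did not overlap, and 20.9% did not overlap and were lower. With library totals the log2 fold changes of these members were -0.19, -0.00491, -0.29 and -0.15 in that order, and overlap was not compared there.

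The 3p strands of the miR-181b hairpins are not among the 7 members and serve as a second pair from the same loci. Both had fractional counts in 3 libraries, so their division between the loci is less certain there. miR-181b-3p, from chromosome 1, was at 30.8, 27.4 and 23.6 CPM in knockout and 25.1, 30.9 and 30.7 CPM in ERβ libraries (log2 fold change 0.09 ± 0.13). miR-181b-2-3p, from chromosome 9, was at 9.91, 12.1 and 11.2 CPM and 9.73, 10.4 and 8.92 CPM (-0.19 ± 0.14). Both overlap between groups and neither passed, with edgeR adjusted p of 0.696 and 0.371. Without S2 they were at 0.09 ± 0.11 and -0.12 ± 0.14 and did not pass either.

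Ratios of strands within a library do not depend on scaling, and 9 were compared between groups with exact two-sided permutation tests. With 3 libraries against 3 the smallest p is 0.1, which is 0.225 after Benjamini-Hochberg adjustment over the 9 ratios, so no ratio could pass 0.05. miR-181b-5p over miR-181a-5p was 1.01, 0.930 and 1.03 in knockout and 1.22, 1.24 and 1.42 in ERβ libraries. In knockout cells the guides were nearly level, with S2 on the other side of 1, and in all 3 ERβ libraries miR-181b-5p was the more abundant. The difference of mean log2 ratios was 0.38 (exact permutation p = 0.1, adjusted 0.225) and 0.34 without S2. It was also 0.38, and 0.33 without S2, for the sum of miR-181b-5p and miR-181d-5p over miR-181a-5p. That ratio, added after the data were seen, does not depend on how reads are divided between miR-181b-5p and miR-181d-5p. It can still depend on reads divided with miR-181a-5p, which was not whole in ERβ libraries 2 and 3.

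**Figure D3:**
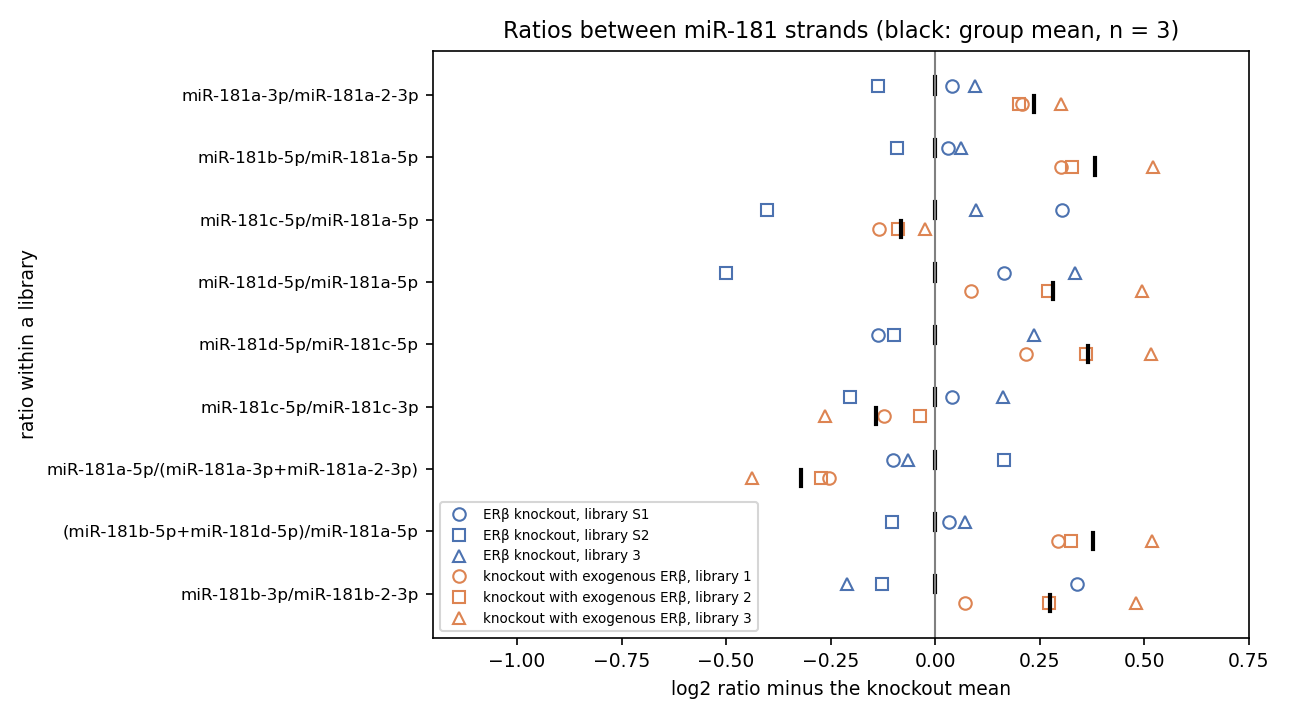
Log2 ratio of miR-181 strands within each library, set to 0 at the knockout mean (horizontal axis), with group means in black (n = 3). The groups separate for 4 of 9 ratios: miR-181b-5p over miR-181a-5p, the same with miR-181d-5p added, miR-181a-3p over miR-181a-2-3p, and miR-181a-5p over its 3p strands. All of these but miR-181a-3p over miR-181a-2-3p contain miR-181a-5p, so they are not separate observations. For comparison, 39.8% of all tested miRNAs had CPM groups that do not overlap. The share among ratios of other strands was not computed.

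The chromosome 1 strand miR-181a-3p exceeded its chromosome 9 counterpart miR-181a-2-3p in every library, by 1.22, 1.07 and 1.26 times in knockout and 1.37, 1.36 and 1.46 times in ERβ libraries. The groups do not overlap, and the log2 difference was 0.24 (exact permutation p = 0.1, adjusted 0.225), or 0.17 without S2. For miR-181b-3p over miR-181b-2-3p the ratios were 3.11, 2.25 and 2.12 against 2.58, 2.97 and 3.43. This pair, added after the data were seen, points the same way at 0.27 but overlaps (exact permutation p = 0.3, adjusted 0.45), and was 0.21 without S2.

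miR-181a-5p over the sum of its 3p strands was 2.77, 3.33 and 2.84 in knockout and 2.49, 2.46 and 2.19 in ERβ libraries. All ERβ values lie below all knockout values, a log2 difference of -0.32 (exact permutation p = 0.1, adjusted 0.225), or -0.24 without S2. The shared guide was lower relative to its own 3p strands as well as in CPM, but both rest on the same miR-181a-5p counts. miR-181c-5p over miR-181c-3p, the strands of one hairpin, ran from 1.16 to 1.49 in knockout and 1.11 to 1.30 in ERβ libraries and overlapped (-0.14, exact permutation p = 0.4, adjusted 0.514). This difference was -0.24 without S2, -0.0598 without knockout library 3 and -0.0793 without ERβ library 3.

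Within the chromosome 19 cluster miR-181d-5p exceeded miR-181c-5p in every library, by 1.09, 1.12 and 1.41 times in knockout and 1.40, 1.54 and 1.72 times in ERβ libraries. These overlap narrowly, with a log2 difference of 0.36 (exact permutation p = 0.2, adjusted 0.36), or 0.31 without S2. miR-181c-5p over miR-181a-5p differed by -0.08 (exact permutation p = 0.7, adjusted 0.7) and by -0.28 without S2, by -0.0323 without knockout library 3, and with a sign that turned without S1 (0.0693). miR-181d-5p over miR-181a-5p differed by 0.28 (exact permutation p = 0.5, adjusted 0.5625) and by 0.0326 without S2, 0.45 without knockout library 3 and 0.18 without ERβ library 3. Neither ratio separates the groups.

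**Figure D4:**
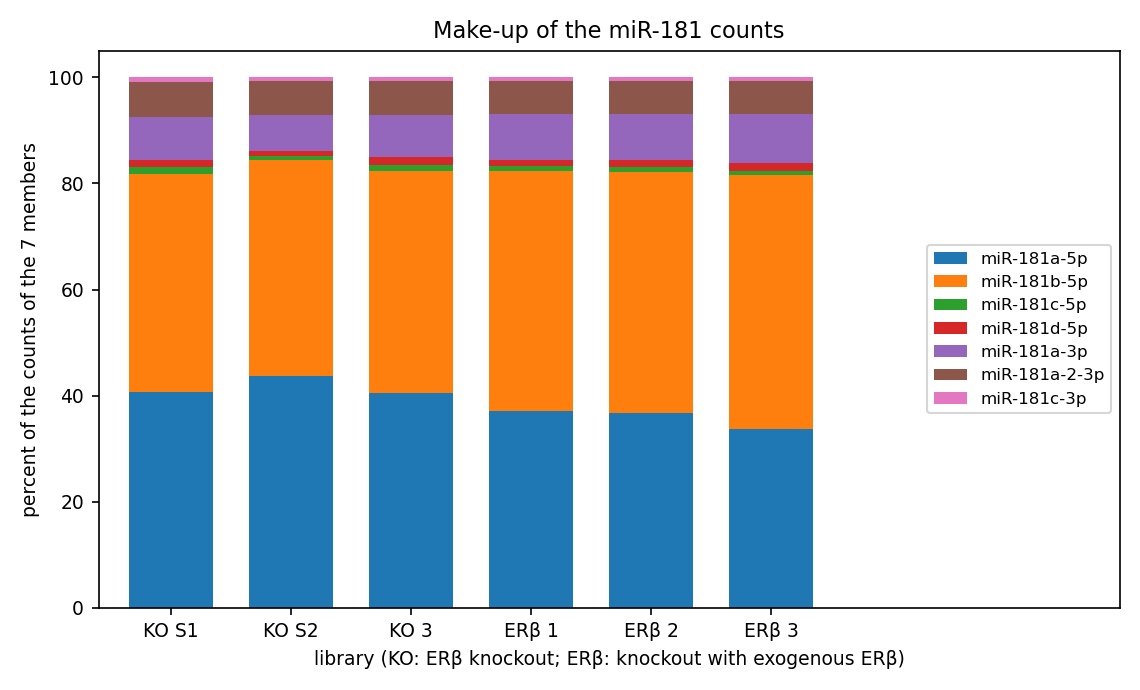
Share of each member in the summed counts of the 7 (percent, stacked) in each library. miR-181a-5p takes 40.5 to 43.7% in knockout and 33.7 to 37.1% in ERβ libraries, and miR-181b-5p 40.6 to 41.9% and 45.2 to 47.9%.

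As shares of the family, miR-181a-5p made up 40.6, 43.7 and 40.5% in knockout and 37.1, 36.6 and 33.7% in ERβ libraries. miR-181b-5p made up 41.1, 40.6 and 41.9% and then 45.2, 45.5 and 47.9%. miR-181a-2-3p stayed within 6.25 to 6.62% in all 6 libraries.

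Reads that match several names had been divided in the deposited table, as fractional counts show. miR-181b-5p was not whole in 5 and miR-181d-5p in 6 of 6 libraries, and miR-181a-5p in 2. The sum of these 3 was whole, within 0.02, in all 6. miR-181a-3p and miR-181c-3p were not whole in the same 2 libraries, and their sum was whole in all. miR-181b-3p and miR-181b-2-3p, which come from different loci, were not whole in the same 3 libraries, and their sum was whole in all. miR-181c-5p and miR-181a-2-3p were whole throughout. How many reads were divided cannot be read from these values, and a small share moved to miR-181d-5p would matter more there than for miR-181b-5p.

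Nearby on chromosome 19, on the opposite strand and 38039 bases from MIR181C, lies the cluster of MIR23A, MIR27A and MIR24-2. Of its 6 strands 5 were tested, and 0 were higher and 2 lower (median log2 fold change -0.21), where 13.3% of all tested miRNAs were lower. These were miR-24-3p (-0.39 ± 0.07, edgeR adjusted p = 0.00264), which is also made on another chromosome, and miR-23a-3p (-0.24 ± 0.06, adjusted p = 0.0228). The call of miR-24-3p was lost in 1 of 14 alternatives, library totals (adjusted p = 0.0509). That of miR-23a-3p was lost in 9 of 14, among them DESeq2 (adjusted p = 0.0542), upper-quartile factors (0.182), library totals (0.363) and every edgeR fit that left out a library other than S2 (0.0625 to 0.181, the first without knockout library 3 and the second without ERβ library 2). miR-27a-5p did not pass with all libraries (-0.21 ± 0.12) and passed without S2 (-0.31 ± 0.07, edgeR adjusted p = 7.83e-04). In that fit 3 of the 5 were lower, as were 19.6% of all tested miRNAs.

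Because miR-181a is known to respond to TGF-β, 13 other miRNAs linked to that cytokine were read in the same fit. Of 11 tested, 2 were higher and 4 lower, with a median log2 fold change of -0.25, where 9.83% of all tested miRNAs were higher and 13.3% lower. DESeq2 called 1 higher and 3 lower and limma-voom 2 and 4. With upper-quartile factors 3 were higher and 3 lower (median -0.14), where 123 and 70 of all tested miRNAs were. With library totals 3 were higher and 2 lower (median -0.0952), where 146 and 61 of all tested miRNAs were. Without S2, 3 were higher and 6 lower, where 15.2% of all tested miRNAs were higher and 19.6% lower. In each fit without any one of the other 5 libraries 1 was higher and 3 lower. miR-100-5p, which restrains mTOR, rose (2.48 ± 0.21), and miR-10b-5p, a pro-metastatic miRNA (-1.85 ± 0.15), and miR-143-3p, a smooth muscle miRNA (-1.15 ± 0.15), fell. The remaining calls were miR-192-5p, higher (0.21 ± 0.07), and miR-24-3p and miR-23a-3p, described above. That of miR-192-5p was lost in 8 of 14 alternatives, among them DESeq2 (adjusted p = 0.0579), no filter (0.0629) and the edgeR fits without any one library other than S2 (0.0741 to 0.150). miR-21-5p, the best known of the list, did not pass with all libraries (-0.26 ± 0.14) but passed without S2 (-0.42 ± 0.04, edgeR adjusted p = 4.67e-09). The list moved in both directions and held members with log2 fold changes far larger in size than that of miR-181a-5p. Those of miR-100-5p, miR-10b-5p and miR-143-3p came from scarce miRNAs, at most 19.8, 13.8 and 8.65 CPM in any library. miR-181a-5p was at 386 CPM or more in every library. Whether the directions seen are those TGF-β would give was not tested.

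The miRNAs whose profile over the 6 libraries was most like that of miR-181a-5p were taken from 382 outside the family averaging at least 10 CPM. Likeness was the root mean square difference between log2 CPM profiles, each centred on its mean. Fold changes similar to that of miR-181a-5p follow from this choice and are not a separate result. miR-222-3p was nearest at 0.0530, from 714 ± 17.2 to 553 ± 18.1 CPM (log2 fold change -0.37 ± 0.07). miR-1287-5p followed at 0.0685, from 76.1 ± 2.34 to 57.2 ± 0.870 CPM (-0.41 ± 0.09), and miR-29c-5p at 0.0705, from 250.2 ± 14.3 to 215 ± 13.5 CPM (-0.22 ± 0.09, which did not pass).

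**Figure D5:**
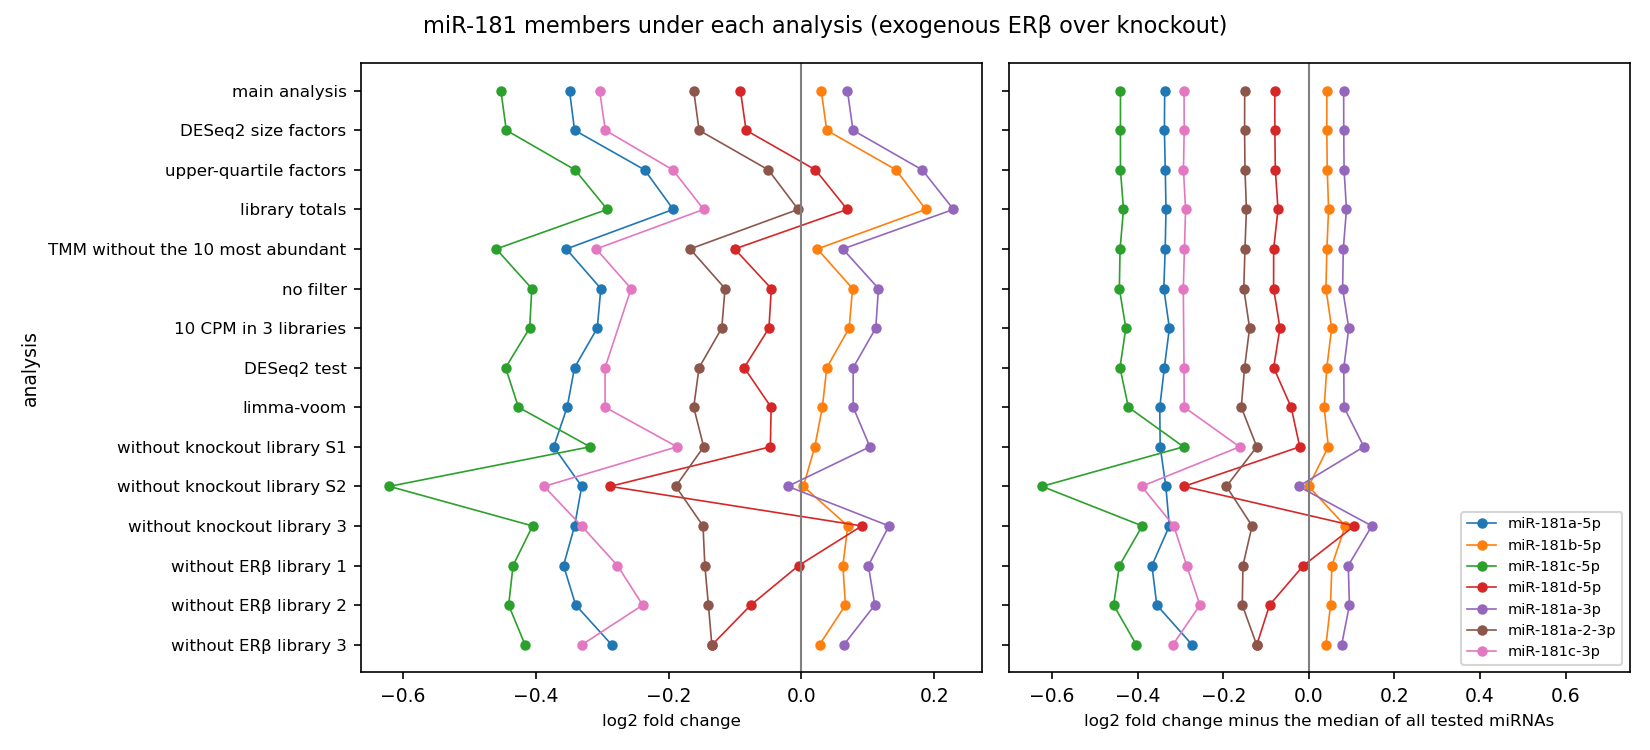
Log2 fold change of each member (horizontal axes, exogenous ERβ over knockout) under the main analysis and 14 alternatives, as fitted (left) and after subtracting the median of all tested miRNAs in that analysis (right). The scalings shift all members together on the left, and miR-181a-5p stays between -0.37 and -0.19, while leaving out knockout library S2 moves miR-181c-5p to -0.62.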

How the data were processed

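Small RNA libraries of 6 KPL4 samples were made with a QIAseq miRNA kit, per the labels' protocols. FastQC, Trim Galore and GRCh38 are named in the submitters' processing notes. Which aligner, counter and miRNA annotation were used, how shared reads were treated and whether molecular identifiers were collapsed is not stated in the sources used. The authors deposited expected counts per mature miRNA. Of the 2656 listed values per library, zeros included, 6.33 to 7.27% were not whole. Those above zero numbered 1394 to 1494 per library. Columns were matched to groups by name. Of the knockout columns 2 carry the number 1 and are called S1 and S2 after the end of their names.

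Expected counts were rounded and all 6 libraries fitted without covariates in edgeR 4.0.16 (R 4.3.3): filterByExpr (minimum count 10, minimum total 15), TMM scaling and the robust quasi-likelihood test. P-values were adjusted by Benjamini-Hochberg over 783 miRNAs, with a threshold of 0.05. The standard error is the size of the log2 fold change divided by the root of the F statistic. A level of 3 counts is 0.201 to 0.305 CPM, a limit that covers counting error only. Ratios had 0.5 added to each count and were compared with exact permutation tests (scipy 1.17.1). Profiles used a prior count of 2. Alternatives were other scalings, filters, DESeq2 1.42.0, limma-voom (limma 3.58.1) and each library left out. 2 ratios were added after the data were seen: the sum of miR-181b-5p and miR-181d-5p over miR-181a-5p, and miR-181b-3p over miR-181b-2-3p. The test was tried on simulated counts. Positions are from GENCODE release 29 (GRCh38), sequences from RefSeq (GRCh38.p14), and figures were drawn with matplotlib 3.10.9. The members and lists were chosen with earlier results of these data known. Named miRNAs are the members, the other strands of their hairpins, miRNAs with the same seed, up to 3 of each list by adjusted p, and the 3 nearest profiles. Other names were chosen after their values were seen.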

Additional observations from a re-analysis of the deposited data

How the results depend on the processing

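No paired analysis was possible because only the number 3 can be read without doubt in both groups. Under library totals 0 members were lower, and 0 under upper-quartile factors. With a library left out 0 to 4 members were lower. Over all tested miRNAs 123 were higher with upper-quartile factors, and 146 were higher and 61 lower with library totals. The filter of 10 CPM in 3 libraries, which tests fewer miRNAs and leaves out miR-181c-3p, gave 66 lower. With a library left out 49 to 122 were higher and 58 to 157 lower. No member was called higher in any of the 14 alternatives. miR-181a-5p kept its sign in all 14 (-0.37 to -0.19) and its call in 9. miR-181c-5p and miR-181c-3p kept a negative sign in 14 of 14 and 13 of 13, and miR-181b-5p a positive one in 14 of 14. The sign of miR-181d-5p turned with upper-quartile factors (0.0211), with library totals (0.0689) and without knockout library 3, and that of miR-181a-3p without knockout library S2. With a library left out miR-181d-5p ran from -0.288 to 0.0909 and miR-181a-3p from -0.0204 to 0.132. The summed share of all counts differed by 0.00192 percentage points (ERβ minus knockout), by -0.0116 over TMM-scaled totals, by -0.00102 without the 10 most abundant miRNAs, and by -0.000576 to 0.00466 with a library left out. The ratio of miR-181c-5p to miR-181a-5p differed by -0.282 to 0.0693 with a library left out, and the other 6 planned ratios kept their sign. Where a value changed, the cause was not tested. Counts of 94 to 246 per library limit miR-181c-5p, miR-181c-3p and miR-181d-5p. Permutation tests of 3 against 3 cannot reach 0.05.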

Other observations

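The third strand outside the 7 members, miR-181d-3p from chromosome 19, had 1, 6 and 4 counts in knockout libraries S1, S2 and 3 and 6, 6 and 13 counts in ERβ libraries 1, 2 and 3. It was too scarce to test. Its partner strand miR-181d-5p had 145 to 246 counts in the same libraries.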
